A study of Mus musculus with 28 samples.

Results

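The 8 genes described here belong to the canonical WNT pathway or are among its transcriptional targets: Ctnnb1, Gsk3b, Tcf7l1, Tcf7, Tcf7l2, Axin2, Nkd1 and Sp5. Regions were assigned to them where the nearest protein-coding transcription start site (TSS) in the mm10 build belonged to one of the 8 and lay within 50 kb of the region's centre. This gave 104 of the 127646 regions in the deposited tables: 25 for Tcf7l2, 23 for Axin2, 20 for Tcf7l1, 8 each for Tcf7, Ctnnb1 and Gsk3b, 7 for Sp5 and 5 for Nkd1. Of these, 14 lay within 1 kb of a TSS and 90 farther away. The farthest region inside the limit, 49733 bp from the Tcf7l1 TSS, had 0.924 in 4HT, 0.165 in EtOH and 0.588 in TD, with no coverage in TT, ET or ED. The nearest one outside it, 51035 bp from a Tcf7l2 TSS, had 0.358 in 4HT, 0.561 in EtOH, 0.415 in TT, 0.324 in TD, 0.111 in ET and 0.474 in ED. By their annotated spans on GRCm38.p6, Axin2 (108917828 to 108950783) and Tcf7 (52246527 to 52283383) lie on chromosome 11, Tcf7l1 (72626371 to 72789045) on 6, Tcf7l2 (55741797 to 55933659) on 19 and Sp5 (70474923 to 70477726) on 2. Nkd1 (88521342 to 88594887) lies on chromosome 8, Ctnnb1 (120933400 to 120960507) on 9 and Gsk3b (38089001 to 38246084) on 16. The samples were mouse embryonic stem cells (mESCs) of the genotype FOXD3-iKO, an inducible knockout of the forkhead factor FOXD3, grown in L2i medium with a labelled treatment time of 24 h. The assay was CUT&Tag, where transposase tethered by an antibody inserts adapters next to nucleosomes with the mark of interest.

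H3K27ac, an acetylation of histone H3 at active promoters and enhancers, was measured in asynchronous cells given 4-hydroxytamoxifen (4HT, 2 samples), which induces FOXD3 loss, and in cells given the solvent (EtOH, 2 samples). H2BK120ac, an acetylation of histone H2B on active chromatin, was measured in 4 groups of 3 samples coded TT, TD, ET and ED. The codes have no expansion in the labels, so which of these samples had lost FOXD3, if any, is not known here. All 6 groups share the FOXD3-iKO genotype, and the sources used here do not say what drives its recombination. Each group has 1 deposited column of CPM-scaled coverage in which the authors had merged the replicates, so no spread between replicates can be given and no test was run. Ratios carry 95% counting intervals, which cover counting error alone.

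In WNT signalling a ligand binds a Frizzled receptor and an LRP co-receptor, which stops a cytoplasmic destruction complex from phosphorylating beta-catenin. Beta-catenin then accumulates and enters the nucleus, where it binds TCF/LEF factors at target genes. In mouse ES cells the medium called 2i mimics this signal with an inhibitor of the kinase GSK3, and TCF7L1, which otherwise represses pluripotency genes, is relieved by beta-catenin.

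Promoter sequences are given where the coverage bears on them. They are from RefSeq on GRCm38.p6 (the assembly of mm10), run 5′ to 3′ on the strand of the gene from 250 bases before the TSS to 50 after it, and were found for all 8 genes, with 11 start sites between them. Capitals mark a motif match. The motifs searched on both strands were CTTTGAT and CTTTGAA, the letters that TCF/LEF factors favour, and TGTTTAC, a forkhead motif. Neither family of motifs overlapped the other in these windows. The Sp5 promoter (chr2:70474673-70474972, plus strand) is shown as the only member promoter with a TCF/LEF match, CTTTGAT beginning 104 bp upstream of the TSS. The second Tcf7 start (chr11:52282546-52282845, minus strand) is shown as the only one with a forkhead match, which begins 1 bp after the TSS and reads GTAAACA on the gene's strand. The Tcf7l1 promoter (chr6:72788996-72789295, minus strand) is shown for contrast, since the region over it was well covered in H3K27ac (2.22 in 4HT, 1.71 in EtOH) and it held neither motif.
Sp5: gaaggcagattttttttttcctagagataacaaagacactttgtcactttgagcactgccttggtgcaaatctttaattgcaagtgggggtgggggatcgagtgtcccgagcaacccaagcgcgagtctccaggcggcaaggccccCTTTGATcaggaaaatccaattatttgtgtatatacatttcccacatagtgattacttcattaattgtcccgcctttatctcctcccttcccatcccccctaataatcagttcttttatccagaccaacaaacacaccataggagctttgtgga
Tcf7, second start: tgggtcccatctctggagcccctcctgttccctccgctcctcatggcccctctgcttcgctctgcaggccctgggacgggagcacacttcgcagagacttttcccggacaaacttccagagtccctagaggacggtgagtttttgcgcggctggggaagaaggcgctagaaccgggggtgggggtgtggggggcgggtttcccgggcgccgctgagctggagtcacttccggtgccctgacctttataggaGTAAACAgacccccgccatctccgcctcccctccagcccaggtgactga
Tcf7l1: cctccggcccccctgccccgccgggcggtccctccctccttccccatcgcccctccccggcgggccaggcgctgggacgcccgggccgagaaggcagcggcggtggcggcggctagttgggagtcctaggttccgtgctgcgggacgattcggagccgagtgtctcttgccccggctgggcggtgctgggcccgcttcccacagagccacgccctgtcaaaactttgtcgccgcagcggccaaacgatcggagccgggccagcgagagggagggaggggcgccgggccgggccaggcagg
Over 21263 promoters of protein-coding genes of the same length, 7.57% held either TCF/LEF word and 3.01% held the forkhead word, against 1 of 11 member promoters in each case. The Sp5 promoter had a GC content of 45.0% and 6 CpG dinucleotides, and the Tcf7l1 promoter 75.3% and 34, beside medians of 56.3% and 13 over all promoters. A match describes letters in the window and says nothing of binding.

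The data are shallow. One fragment was taken to be worth the most frequent value in its column, which ran from 0.165 (EtOH) to 0.207 (4HT) in H3K27ac and from 0.412 (TD) to 0.445 (ET and ED) in H2BK120ac. The implied depths were 4.82 M fragments in 4HT and 6.08 M in EtOH, and between 2.25 M and 2.43 M in the H2BK120ac groups. Regions with a mean pile-up of at least 5 fragments over the groups of a table are called well covered. There were 11 such member regions in H3K27ac and 2 in H2BK120ac. Between 15.4% (EtOH) and 40.4% (TT) of the 104 regions had no coverage. At Foxd3, the targeted gene, 2 regions lay inside the gene. In 4HT cells neither had H3K27ac coverage, and in EtOH cells both did, at no more than 0.224. In H2BK120ac both were covered in TD, at up to 0.807, and neither in TT, ET or ED. These are values of 1 or 2 fragments, so the labels could not be checked on the gene at this depth. All 8 markers of embryonic stem cells had kept regions in both tables, and their summed H3K27ac level was 18.2 in 4HT and 14.5 in EtOH. The other marker lists summed to between 0.702 (primitive endoderm) and 2.67 (fibroblast feeders) in 4HT, and to between 1.06 (primitive endoderm) and 2.41 (fibroblast feeders) in EtOH. In H2BK120ac the stem cell markers summed to 8.40 in TT, 9.79 in TD, 7.04 in ET and 5.41 in ED, and the fibroblast feeder markers, 3 of 6 with kept regions, to 1.62 in TT, 1.39 in TD, 3.42 in ET and 1.88 in ED. One feeder gene was at 0 in TD and in ED. The primitive endoderm markers summed to 1.81 in TT, 1.55 in TD, 2.26 in ET and 2.45 in ED. The part of these markers in the differences below was not tested.

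H3K27ac around the 8 genes was led by Tcf7l1, with Ctnnb1 and Gsk3b next and Nkd1 at the level of single fragments. A gene's level is its mean coverage over all its regions, with missing values as 0 and an exact Poisson 95% interval. Tcf7l1, which encodes the TCF factor that represses pluripotency genes in ES cells, had 1.11 (0.914 to 1.35) in 4HT and 0.851 (0.695 to 1.03) in EtOH, above 88.2% and 87.2% of genes. Ctnnb1, which encodes beta-catenin, had 0.695 (0.458 to 1.01) in 4HT and 0.417 (0.255 to 0.642) in EtOH. The interval of Tcf7l1 overlapped that of Ctnnb1 in 4HT and lay above it in EtOH. Gsk3b, which encodes a kinase that marks beta-catenin for degradation, had 0.516 (0.315 to 0.798) in 4HT and 0.397 (0.240 to 0.617) in EtOH.

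Axin2 encodes a scaffold of the destruction complex and is itself induced by WNT signals. It had 0.373 in 4HT and 0.300 in EtOH. Sp5, a zinc finger factor and direct WNT target, had 0.296 in 4HT and 0.262 in EtOH. Tcf7 and Tcf7l2 encode the other 2 TCF factors of the group. Tcf7 had 0.218 in 4HT and 0.266 in EtOH, and Tcf7l2 had 0.200 in 4HT and 0.176 in EtOH. Nkd1, which encodes an inhibitor that binds Dishevelled, had 0.124 in 4HT and 0.114 in EtOH, from 3 covered regions in each group. Down the order of levels each gene's interval overlapped that of the next in 4HT, and in EtOH the step from Tcf7l1 to Ctnnb1 was the exception.

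**Figure D1:**
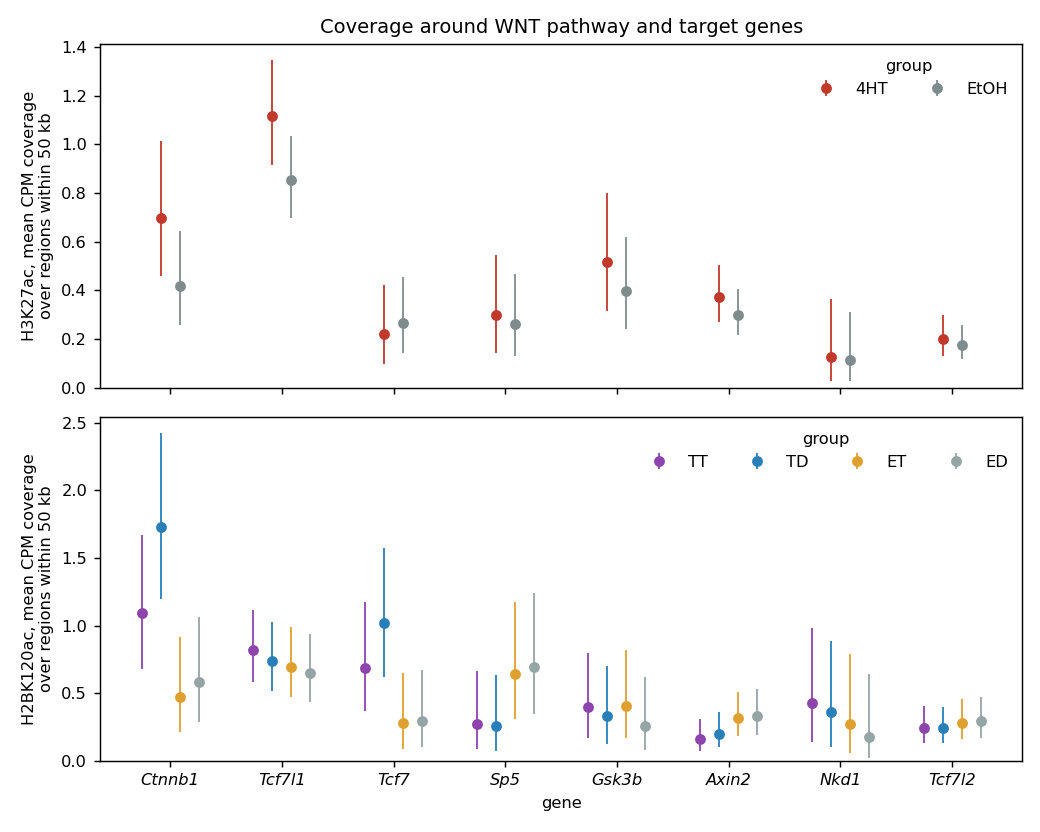
Mean CPM coverage (y axis, linear) over all regions within 50 kb of each gene (x axis, ordered by the mean over the 6 columns), for H3K27ac in 4HT and EtOH cells above and for H2BK120ac in TT, TD, ET and ED below. Points are the authors' merged columns and bars are exact Poisson 95% counting intervals, not replicate error; Tcf7l1 is highest in H3K27ac (1.11 in 4HT, 0.851 in EtOH) and Ctnnb1 in TD (1.73).

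At promoters, H3K27ac was well covered for 4 of the 8 genes. The Axin2 promoter region (chromosome 11, 108920074 to 108920966, inside the gene and 171 bp from the TSS) had 2.34 in 4HT and 1.12 in EtOH. The Tcf7l1 promoter region (chromosome 6, 72788839 to 72789704, overlapping the gene start, 227 bp from the TSS) had 2.22 in 4HT and 1.71 in EtOH. The Gsk3b promoter region (chromosome 16, 38088307 to 38090001, across the gene start) had 1.77 in 4HT and 1.55 in EtOH. All 3 had more H3K27ac in 4HT than in EtOH, as did the region 957 bp into Tcf7l1, with 2.57 in 4HT and 2.11 in EtOH. At Ctnnb1 the region across the start (chromosome 9, 120932912 to 120933612) had 0.410 in 4HT and 0.283 in EtOH, and the one 854 bp inside the gene had 1.09 in 4HT and 0.784 in EtOH. The regions nearest to the Sp5 start and the first Tcf7l2 start held the equivalent of 1 or 2 fragments, at 0.207 in 4HT and 0.274 in EtOH for Sp5 and at 0.316 in 4HT and 0.255 in EtOH for Tcf7l2. The Tcf7 region over the second start had the value of 1 fragment in each group, 0.207 in 4HT and 0.165 in EtOH. Nkd1 had no region within 1 kb of its listed TSS, and the region across the start of its annotated span (chromosome 8, 88520898 to 88522162) had 0.207 in 4HT and 0.187 in EtOH.

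Away from promoters, 5 well-covered H3K27ac regions lay inside Tcf7l1. The region with the highest value of all members was 1513 bp into the gene (chromosome 6, 72787209 to 72787855), with 3.77 in 4HT and 2.71 in EtOH. Regions 35088 bp and 30426 bp into the gene had 3.10 and 2.76 in 4HT, against 1.84 and 1.82 in EtOH. For Ctnnb1 the region 28869 bp from the TSS, outside annotated protein-coding genes, had 1.38 in 4HT and 0.602 in EtOH. None of the 10 Tcf7l1 regions more than 1 kb upstream was well covered.

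**Figure D2:**
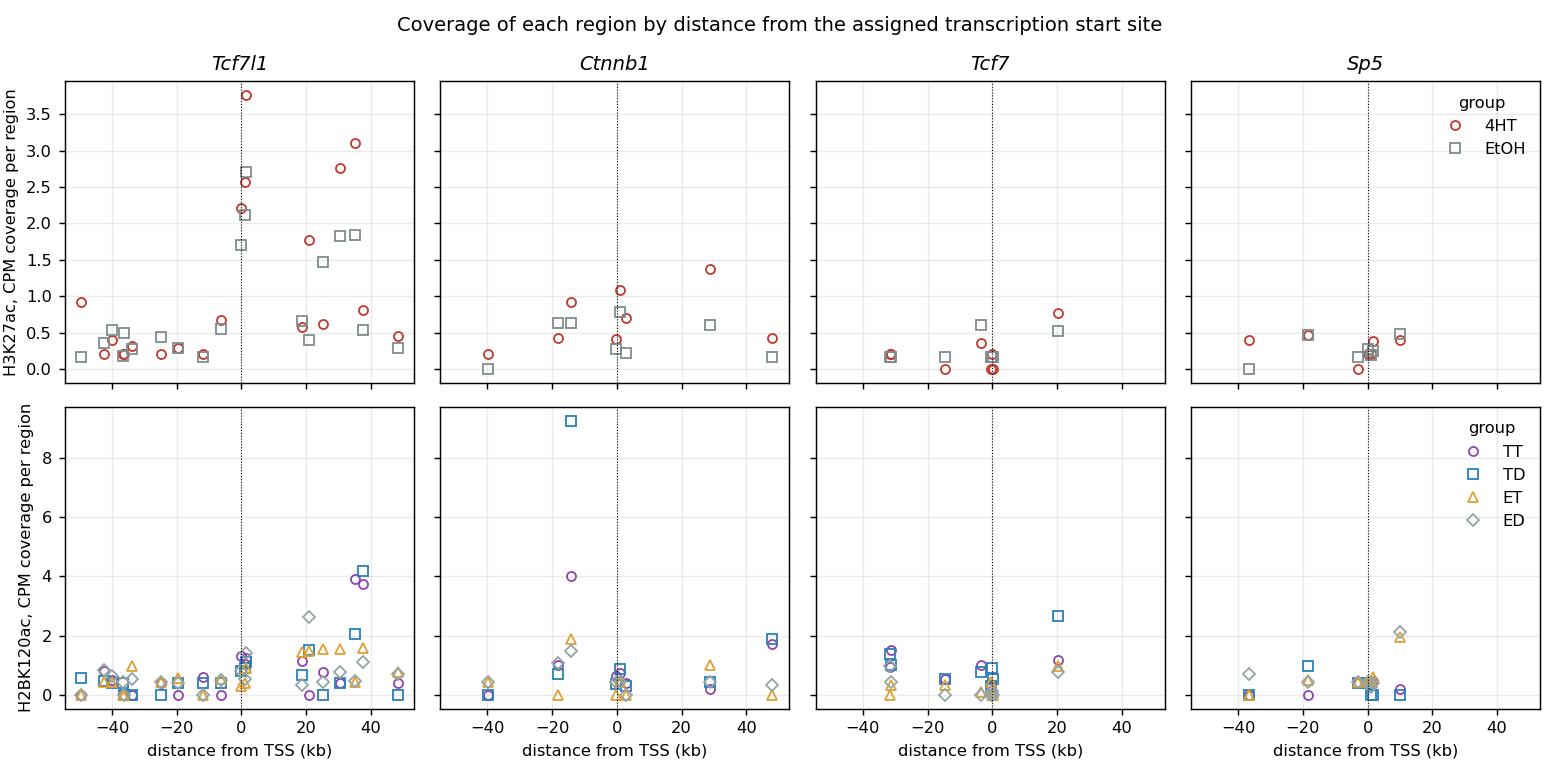
Coverage of each region (y axis, CPM-scaled, linear) against its distance from the assigned TSS in kb (x axis, negative upstream) for Tcf7l1, Ctnnb1, Tcf7 and Sp5, with H3K27ac in the upper row and H2BK120ac in the lower row. Each point is 1 region in 1 merged column and missing coverage is drawn at 0; the Ctnnb1 region 14054 bp upstream stands out in TD at 9.25.

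The H3K27ac comparison of 4HT with EtOH asks what FOXD3 loss does to active promoters and enhancers. No member gene was 2-fold higher or lower in 4HT, while of 14891 genes 2.14% passed that size upwards and 0.907% downwards. Here a gene's value is the mean over its kept regions, those whose mean over the groups of the table reaches the pseudocount of 0.2, and folds are on the log2(value + pseudocount) scale, so low values give too small a fold. All 8 genes had a kept region. The median log2 fold was 0.25 over the members and 0.16 over all genes, and 6 of the 8 were positive. Ctnnb1 had the highest, 0.51, with 0.765 in 4HT and 0.476 in EtOH, a ratio of 1.61 (0.864 to 3.03). Tcf7l1 had a log2 fold of 0.33 and a ratio of 1.31 (0.988 to 1.74). Tcf7 had -0.02 and Nkd1 -0.04. The counting interval of every member gene included 1. Summed over all 104 regions the ratio was 1.27 (1.06 to 1.52), beside 1.17 for all 127646 regions.

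Among the 11 well-covered member regions, 10 had more H3K27ac in 4HT. By the 2-fold rule 1 was higher and 1 lower, while 7.68% of 13807 well-covered regions were higher and 0.739% lower. Both lay inside Tcf7l1. The region 20813 bp from the TSS (chromosome 6, 72768154 to 72768311) had 1.77 in 4HT and 0.407 in EtOH, a ratio of 4.36 (0.984 to 31.2). The region 25190 bp from the TSS (72763746 to 72763965) had 0.616 in 4HT and 1.47 in EtOH, a ratio of 0.418 (0.0721 to 1.69). Each interval included 1. The Axin2 promoter was just short of 2-fold by this rule, with a log2 fold of 0.95 and a ratio without the pseudocount of 2.10 (0.742 to 6.46).

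**Figure D3:**
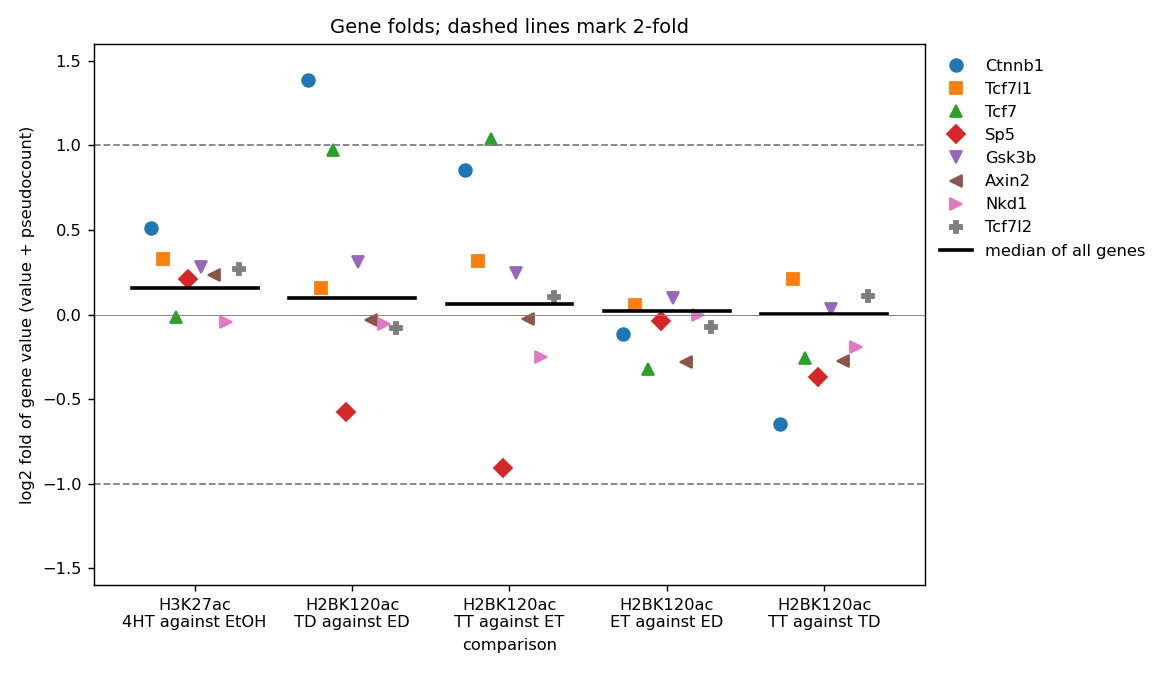
Log2 fold of the gene value, on log2(value + pseudocount) (y axis), for the 8 genes in the 5 comparisons (x axis). Symbols are genes, black bars the median over all genes measured and dashed lines 2-fold in either direction; Ctnnb1 in TD against ED (1.39) and Tcf7 in TT against ET (1.04) lie past 2-fold.

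H2BK120ac was higher in TD than in ED around Ctnnb1. Tcf7 lay just under 2-fold in the same comparison on the log2(value + pseudocount) scale. Of the 8 member genes 1 passed 2-fold upwards and 0 downwards, while 17.8% of 12272 genes passed upwards and 7.95% downwards. The pseudocount was 0.4. Over its kept regions Ctnnb1 had 2.63 in TD and 0.759 in ED, a log2 fold of 1.39 and a ratio of 3.46 (1.59 to 8.45). This rested on the region 14054 bp upstream of the TSS (chromosome 9, 120919081 to 120919611), outside annotated protein-coding genes. That region had 4.03 in TT, 9.25 in TD, 1.90 in ET and 1.50 in ED. Over all 8 Ctnnb1 regions the ratio was 2.95 (1.44 to 6.57), with 4 regions higher in TD and 4 lower. The ratio of TD to ED at the upstream region was 6.17 (1.96 to 28.6), and without the region, an alternative chosen after seeing the data, the gene's log2 fold was 0.50. The high TD value also helped to make the region well covered, and the interval does not allow for that. The same region had 0.919 H3K27ac in 4HT and 0.634 in EtOH. The region 47921 bp downstream, inside Ulk4, had 1.71 in TT, 1.88 in TD, no coverage in ET and 0.334 in ED. At the Ctnnb1 start itself the values were those of 1 or 2 fragments in TT, TD and ED, and there was no coverage in ET.

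Tcf7, the gene of TCF1, had more H2BK120ac in TD and TT than in ED and ET at most of its regions. Its level over all 8 regions was 0.689 (0.370 to 1.17) in TT, 1.02 (0.621 to 1.58) in TD, 0.278 (0.0899 to 0.648) in ET and 0.294 (0.0992 to 0.671) in ED. TD was higher than ED in 8 of 8 regions, and TT was higher than ET in 5 of the 6 covered in either. Of all regions covered in either column 39.7% were higher in TD than in ED and 39.6% in TT than in ET. The all-region ratio was 3.47 (1.29 to 11.4) for TD over ED and 2.48 (0.834 to 8.88) for TT over ET. The region 20437 bp into the gene (chromosome 11, 52262064 to 52262252) had the highest values, with 1.18 in TT, 2.66 in TD, 0.996 in ET and 0.780 in ED. The region 31216 bp upstream had 1.52 in TT, 1.02 in TD, 0.334 in ET and 0.445 in ED. Over the second start, whose sequence with the forkhead letters is given above, TD had 0.905 and ED 0.152, with no coverage in TT or ET. H3K27ac over the 8 Tcf7 regions averaged 0.218 in 4HT and 0.266 in EtOH, beside 0.477 and 0.409 over all 127646 regions. The region 20437 bp into the gene had 0.770 in 4HT and 0.529 in EtOH.

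In TT against ET, 1 member gene passed 2-fold upwards and 0 downwards, while 15.6% of 12272 genes passed upwards and 8.49% downwards. This was Tcf7, with 1.16 in TT and 0.360 in ET over its kept regions, a log2 fold of 1.04. Its ratio of 3.22 had an interval of 0.883 to 16.6, and the log2 fold was 0.76 with the pseudocount doubled and 0.68 with no filter, both short of 2-fold. In TD against ED the log2 fold of Tcf7 was 0.97. Ctnnb1 had 1.54 in TT and 0.671 in ET, a log2 fold of 0.86. The member median was 0.18 here, where all genes had 0.06. For TD against ED it was 0.07, where all genes had 0.10.

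Sp5 had less H2BK120ac in TT and TD than in ET and ED, short of 2-fold on the log2(value + pseudocount) scale. Its level over 7 regions was 0.275 (0.0844 to 0.661) in TT, 0.258 (0.0759 to 0.635) in TD, 0.640 (0.308 to 1.18) in ET and 0.695 (0.346 to 1.25) in ED. The ratios of these levels, without a pseudocount, were 0.372 (0.0925 to 1.21) for TD over ED and 0.429 (0.110 to 1.41) for TT over ET. TD was lower than ED in 6 of 7 regions and TT lower than ET in 6 of 6 covered in either, beside 60.3% and 60.4% of all covered regions. The kept-region log2 fold was -0.91 for TT over ET and -0.57 for TD over ED, and every counting interval included 1. The widest gap was at the region 10023 bp downstream (chromosome 2, 70484694 to 70485197), which overlaps no annotated protein-coding gene. Its values were 0.207 in TT, no coverage in TD, 1.95 in ET and 2.13 in ED. Without it, an alternative chosen after seeing the data, the log2 fold of Sp5 was -0.35 in TT against ET and 0.25 in TD against ED. The region next to the Sp5 start had the value of 1 fragment in all 4 groups, from 0.412 to 0.445.

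Tcf7l1 had similar H2BK120ac levels in all 4 groups, 0.816 in TT, 0.739 in TD, 0.696 in ET and 0.653 in ED, and the intervals of the 4 overlapped. Its regions went in different directions. The region 37733 bp into the gene (chromosome 6, 72751159 to 72751465) was the second well-covered member region in H2BK120ac. It had 3.73 in TT, 4.19 in TD, 1.59 in ET and 1.10 in ED, with a TD to ED ratio of 3.80 (0.902 to 26.5) and a TT to ET ratio of 2.34 (0.626 to 11.4). The region 35088 bp into the gene, strong in H3K27ac, had 3.90 in TT, 2.07 in TD, 0.445 in ET and 0.465 in ED. The region 20813 bp into the gene, at least 2-fold higher in 4HT in H3K27ac, had no H2BK120ac coverage in TT, 1.51 in TD, 1.50 in ET and 2.64 in ED. The region 30426 bp into the gene had 0.420 in TT, 0.412 in TD, 1.54 in ET and 0.769 in ED. At the promoter the values were 1.30 in TT, 0.819 in TD, 0.322 in ET and 0.817 in ED. Both of the 2 well-covered member regions passed 2-fold upwards in TD against ED, where 55.1% of 2782 well-covered regions passed upwards and 18.5% downwards. In TT against ET 1 passed upwards, beside 49.6% upwards and 21.6% downwards. Both regions owed most of their pile-up to TD and TT. The Ctnnb1 region had 22.5 fragments in TD, 9.71 in TT, 4.26 in ET and 3.37 in ED. The Tcf7l1 region had 10.2, 8.99, 3.57 and 2.48 in the same groups. The filter takes the mean over the groups, so these counts are not independent of it, and no conclusion is drawn from them.

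Axin2 and Tcf7l2 averaged less than 1 H2BK120ac fragment per region in every group. The Axin2 level was 0.165 in TT, 0.201 in TD, 0.314 in ET and 0.332 in ED over 23 regions, with overlapping intervals. TT was lower than ET in 13 of the 16 Axin2 regions covered in either, and TD lower than ED in 11 of 16, beside 60.4% and 60.3% of all covered regions. The Axin2 promoter had 0.666 in TT, 0.696 in TD, 0.879 in ET and 0.397 in ED. Tcf7l2 had 0.243 in TT, 0.241 in TD, 0.282 in ET and 0.291 in ED over 25 regions, 2 of which had no coverage in any column of either mark. At its internal second start, the region 890 bp into the transcript had 1.31 in TT and 0.634 in TD, with no coverage in ET or ED. Gsk3b had 0.399 in TT, 0.330 in TD, 0.404 in ET and 0.255 in ED, and its promoter region had 0.978, 0.616, 0.433 and 0.464 in the same groups. Nkd1 had 0.428 in TT, 0.358 in TD, 0.272 in ET and 0.178 in ED on 5 regions, and no region of it exceeded 0.555.

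With the first letter held, no member gene passed 2-fold. In ET against ED 0 of 8 did, beside 5.10% of genes higher and 4.21% lower, and the member median was -0.06. In TT against TD 0 of 8 did, beside 4.07% higher and 4.28% lower, and the median was -0.22. The region upstream of Ctnnb1 was lower in TT than in TD, with a ratio of 0.435 (0.182 to 0.962), and was the 1 well-covered member region past 2-fold, where 5.75% of such regions were lower and 2.48% higher. Its 22.5 fragments in TD helped to make it well covered. The interval does not allow for that, so no conclusion is drawn from it. In ET against ED neither well-covered member region passed, beside 10.4% higher and 3.85% lower. Each of these comparisons shares 1 column with TD against ED and 1 with TT against ET.

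Over the 6 columns of both marks Ctnnb1 had a mean of 0.833 and Tcf7l1 one of 0.812, above 87.2% and 86.6% of genes. Ctnnb1 stood first through its upstream region in TD, while Tcf7l1 led in H3K27ac. Of 11756 genes with kept regions in both tables, the one with the nearest 6-column profile on the log2 scale was Zfp53, at a Euclidean distance of 0.34. Over kept regions Zfp53 had 1.84 in TT, 2.43 in TD, 0.651 in ET and 0.790 in ED, where Ctnnb1 had 1.54, 2.63, 0.671 and 0.759 in the same groups.

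A list of 84 other WNT pathway genes was set beside the 8. In H3K27ac 78 were measured, of which none was at least 2-fold higher in 4HT and 1 was lower, the co-receptor gene Lrp5. It had a single kept region, without coverage in 4HT and with 0.486 in EtOH. The list median was 0.04, beside 0.16 over all genes. In H2BK120ac 63 were measured. For TD against ED 10 passed 2-fold upwards (15.9%) and 7 downwards (11.1%), beside the 17.8% and 7.95% of all genes. For TT against ET 4 passed upwards (6.35%) and 10 downwards (15.9%), beside 15.6% and 8.49%. The list medians were -0.17 and -0.19 for these comparisons.

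Of the genes higher in TD than in ED, 4 of 10 were also higher in TT than in ET, where they made up 4 of 4. Over all genes the shared ones were 50.9% of those higher in TD than in ED and 58.4% of those higher in TT than in ET. Of the 7 lower in TD than in ED, 1 (Fzd3, a Frizzled receptor gene) was among the 10 lower in TT than in ET, beside 38.2% and 35.8% over all genes. The 4 shared higher genes were Csnk1a1, Lgr6, Wnt16 and Wnt8a. Their kept regions were covered mostly in TT and TD, the groups that carried them past the filter, so their values are given over all regions, an alternative chosen after seeing the data. Lgr6, an R-spondin receptor gene with 6 regions, had 1.77 in TT, 1.42 in TD, 0.297 in ET and 0.292 in ED. Its ratios were 4.87 (1.63 to 19.8) for TD over ED and 5.94 (2.06 to 23.4) for TT over ET. Wnt8a, a ligand gene with 6 regions, had 1.57 in TT, 1.65 in TD, 0.431 in ET and 0.309 in ED, with ratios of 5.33 (1.86 to 20.4) for TD over ED and 3.65 (1.43 to 11.2) for TT over ET. The intervals of these ratios lay above 1, but both genes were picked by their folds in the same columns. The intervals do not allow for that choice or for replicate spread. Csnk1a1, which encodes the casein kinase that primes beta-catenin for GSK3, had 1.13 in TT, 0.907 in TD, 0.295 in ET and 0.203 in ED. Wnt16, another ligand gene, had 0.747 in TT, 0.794 in TD, 0.278 in ET and 0.139 in ED over 4 regions, and the intervals of both its ratios included 1.

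In TD against ED the 14 receptor genes had a list median of -0.20. Of them 3 passed 2-fold upwards and 2 downwards, beside 17.8% and 7.95% of all genes. Besides Lgr6 the higher ones were Fzd5, with 1.45 in TD and 0.371 in ED over all regions (ratio 3.90, 1.72 to 10.1), and Fzd10, with 0.892 in TD and 0.317 in ED (ratio 2.82, 1.34 to 6.46). The lower ones were Fzd3 and Fzd9. Fzd3 had 0.206 in TD and 1.55 in ED, and Fzd9 had no coverage in TD and 0.798 in ED at its kept region. Over all regions the ratio was 0.133 (0.00295 to 1.04) for Fzd3 and 0.479 (0.0769 to 2.28) for Fzd9. Of 8 destruction complex and transduction genes, with a list median of 0.63, 3 were higher and 0 lower, beside the same all-gene shares. The 3 were Csnk1a1, Dvl3 and Gsk3a. In TT against ET the list median was -0.08, with 1 gene higher and 1 lower, beside 15.6% and 8.49% of all genes. Dvl3, a Dishevelled gene, had 1.87 in TD and 0.309 in ED (ratio 6.06, 1.41 to 51.8). Gsk3a, which encodes the other GSK3 kinase, had 1.08 in TD and no coverage in ED at its 1 kept region. All 3 Dvl3 regions were kept ones, so its ratio does not escape the filter. Like Lgr6 and Wnt8a, the genes of this paragraph were picked by their folds in the same columns. Their intervals do not allow for that choice.

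Wnt3a and Dkk3 were the remaining genes higher in TD, each on 1 kept region, with log2 folds of 1.03 and 1.48. Over all regions the ratio was 4.07 (0.776 to 45.3) for Wnt3a and 1.40 (0.270 to 8.77) for Dkk3, and both intervals included 1. Wnt2, Wnt7a, Sfrp2, Fgf8 and Notum were the remaining genes lower in TD. Wnt2, Sfrp2 and Fgf8 had no coverage in TD at their 1 kept region, against 0.939, 1.10 and 0.445 in ED. Wnt7a had 0.206 in TD and 0.833 in ED over its kept regions. Over all regions the ratio of TD to ED was 0.606 (0.105 to 2.94) for Wnt2 and 0.324 (0.0227 to 2.23) for Wnt7a. It was 0.171 (0.0184 to 0.789) for Sfrp2, and the interval for Fgf8 included 1. Notum, which encodes a secreted enzyme that inactivates WNT ligands, had 0.625 in TT, 0.343 in TD, 0.405 in ET and 1.77 in ED over its 4 regions, so ED alone stood high. Its ratio was 0.194 (0.0401 to 0.647) for TD over ED, 0.229 (0.0513 to 0.737) for ET over ED and 1.55 (0.356 to 8.02) for TT over ET. Sfrp2 and Notum too were picked by their folds in the same columns, and the intervals do not allow for that choice.

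In TT against ET the genes at least 2-fold lower were Btrc, Dkk3, Fzd3, Lef1, Msgn1, Pygo2, Ror2, Ryk, Wnt2b and Wnt7b. Apart from Msgn1 and Lef1, the interval of each gene's kept-region ratio included 1. Pygo2, Ror2 and Ryk each had 1 kept region, with no coverage in TT and 0.574, 0.572 and 0.676 in ET. Msgn1, a mesoderm target of WNT, had 0.684 in TT and 1.82 in ET over 10 regions (ratio 0.375, 0.198 to 0.680). Lef1, the remaining gene of the TCF/LEF family, had 0.169 in TT and 0.445 in ET over 20 regions (ratio 0.379, 0.145 to 0.894). Msgn1 and Lef1 were picked by their folds in these columns, and the intervals do not allow for that choice. Of the 8 target genes measured 0 were higher and 1 lower in TD than in ED (Fgf8), beside 17.8% and 7.95% of all genes. For TT against ET 0 were higher and 1 lower (Msgn1), beside 15.6% and 8.49%. The target medians were -0.57 for TD over ED and -0.43 for TT over ET, where all genes had 0.10 and 0.06. The secreted and membrane inhibitors had medians of -0.40 and -0.37, so a lower median was not particular to the targets.

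**Figure D4:**
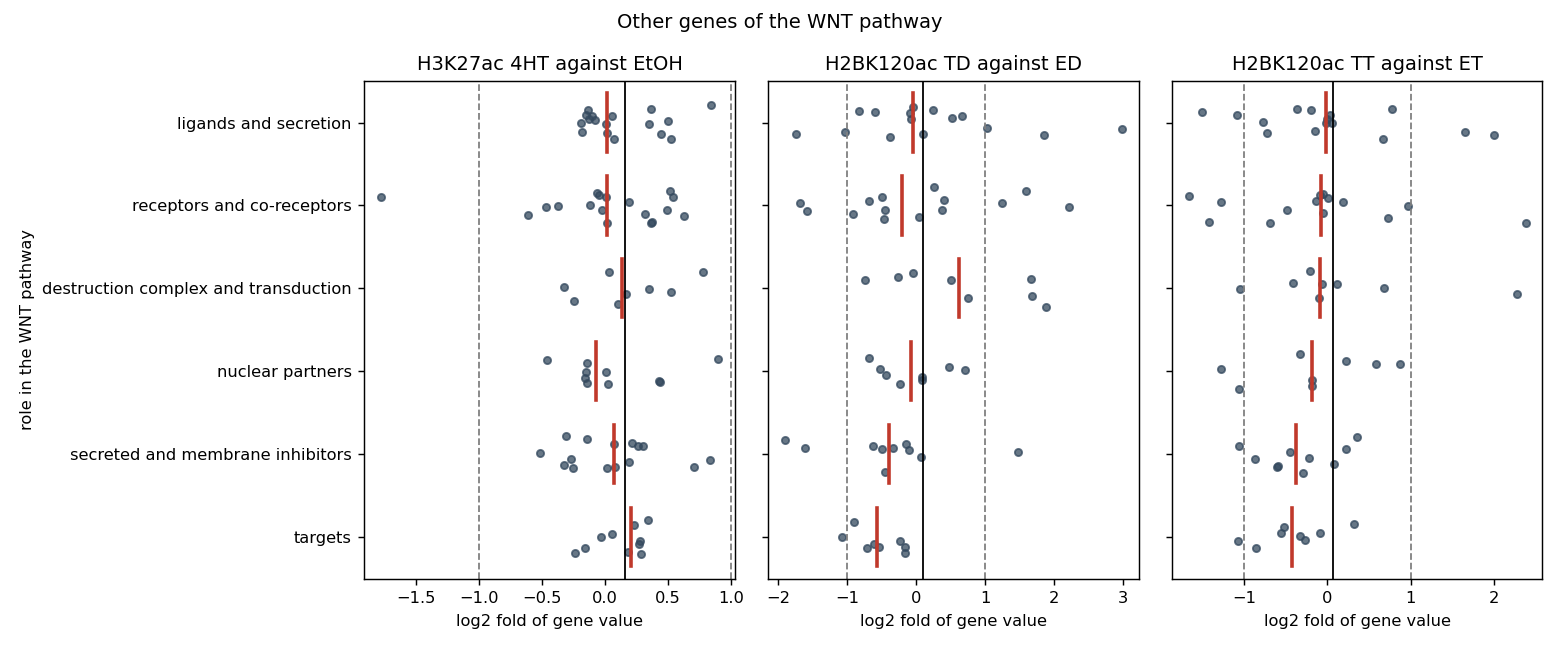
Log2 fold of the gene value (x axis) for the other WNT pathway genes by role (y axis) in 4HT against EtOH for H3K27ac, and in both first-letter comparisons (TD over ED, TT over ET) for H2BK120ac. Each point is 1 gene, short red bars are list medians, the black line is the median of all genes and dashed lines mark 2-fold. In the H2BK120ac panels the target list has medians of -0.57 and -0.43, and the secreted and membrane inhibitors -0.40 and -0.37.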

How the data were processed

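The deposited values are coverage signal per region, CPM-scaled by the authors per the names of the tables, with the replicates merged into 1 column per group per the file headers. The build is mm10, and featureCounts and DESeq2 are named without a role for H3K27ac, per the submitters' processing notes. The sources used here name no aligner or coverage tool. Both table names end in atac, and that of H2BK120ac also holds trp and async. These terms are not expanded, and how the regions were chosen is not stated. No value is 0 and uncovered regions hold no number, so a mean seems to skip bases without coverage, and sparse regions then read high. Another 12 samples, sorted by phase, were not analysed here. A further 16 value columns named IgG match no sample and were not used, so background was not subtracted.

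Missing values were set to 0. The tables were normalized apart, and groups were compared within a mark. The 6-column mean and profile pool both marks. TSS came from the RefSeq promoter table, or, for 4408 of 21900 protein-coding genes, from the end of the gene span within 5 kb of the centre of a deposited TSS window, which left 410 genes without one. The size rule was at least 2-fold, the pseudocount the 25th percentile of positive values to 1 digit. Gene spans give no exons, so only overlap with a gene is reported. Clopper-Pearson intervals on shares of pile-up were turned into ratios. The H2BK120ac minimum is 0.25 of the commonest value, so its fragment counts rest on reading the commonest value as 1 fragment. The planned limma fits need separate replicates and were not run. Named by rule are all 8 members, their promoter and strongest distal regions, well-covered regions past 2-fold, and listed pathway genes past 2-fold in 4HT against EtOH, TD against ED or TT against ET. The rule also took 3 genes nearest in profile to Ctnnb1, of which 1 is given and the others are not reported here. Other regions and levels quoted were chosen after their values were seen, and the members and lists were chosen with earlier results of these data known. Computations used Python 3.11.15, numpy 2.4.6, pandas 2.3.3, scipy 1.17.1 and matplotlib 3.10.9. Intervals and folds were tried on simulated independent fragment counts, for regions averaging at least 5 fragments. That trial covers neither the sparser regions, which are most member regions, nor the reading of mean coverage as a fragment count.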

Additional observations from a re-analysis of the deposited data

How the results depend on the processing

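The 8 member folds were recomputed with 7 other settings in each of the 5 comparisons. The member median moved most with regions within 10 kb, from 0.18 in TT against ET and from -0.22 in TT against TD. That setting leaves 7 genes and gave medians of 0.73 in TT against ET and 0.25 in TT against TD. The medians over all genes were 0.18 and 0.01 there. The count of members at least 2-fold higher in TD than in ED was 2 with the pseudocount divided by 2, 2 with no filter, 2 with median centring and 2 within 10 kb. The shares of all genes in those settings were 21.8%, 10.1%, 19.1% and 20.2%. Within 10 kb these members were Tcf7 (log2 fold 1.56) and Tcf7l2 (1.40), while Ctnnb1 had 0.58. Tcf7 rested there on the region 3564 bp upstream, with 0.776 in TD and no coverage in ED. Tcf7l2 rested on the regions 273 bp and 890 bp past its second start, with 0.679 and 0.634 in TD and none in ED. These regions passed the filter mainly through TT and TD, so no conclusion is drawn from these folds. The count of members was 0 without the upstream Ctnnb1 region, a setting chosen after seeing the data, beside 17.8% of all genes. In TT against ET the count higher was 0 with double the pseudocount, 0 with no filter, 0 with missing values left out and 2 within 10 kb, and the count lower was 1 with the pseudocount divided by 2 (Sp5, -1.17). Within 10 kb the log2 fold of Tcf7l2 was 1.25 for TT against ET, on the same regions and with the same limit. Of 283 recomputed gene folds, 31 changed sign, over 21 of 40 gene and comparison pairs, and none of these was past 2-fold before. The cause of these moves was not tested beyond the regions and values each setting removes. Median centring moved the median of all genes from 0.16 to -0.01 in H3K27ac, where the member median was then 0.10. No paired analysis was possible because the replicates of each group are merged in 1 column, and for the same reason no replicate could be left out. At 1 to 5 fragments per region, depth limits most member values to the presence or absence of coverage.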

Other observations

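Among the other WNT pathway genes Notum had the highest H3K27ac level in both groups. Over its 4 regions the mean was 2.58 in 4HT and 2.23 in EtOH, above that of any of the 8 members. Its H2BK120ac level was 0.625 in TT, 0.343 in TD, 0.405 in ET and 1.77 in ED. Wif1, which encodes a secreted inhibitor that binds WNT ligands, had H3K27ac levels of 1.98 in 4HT and 1.06 in EtOH. Porcn, which encodes the enzyme that lipidates WNT ligands for secretion, had H3K27ac levels of 1.80 in 4HT and 1.21 in EtOH, while its H2BK120ac was 0.207 in TT, 0.103 in TD, 0.620 in ET and 0.532 in ED. In H2BK120ac the highest levels of the list were those of Lgr6 in TT (1.77), Dvl3 in TD (1.87), Msgn1 in ET (1.82) and Notum in ED (1.77). These genes were chosen after their values were seen.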
